A study of Caenorhabditis elegans with 161 samples.

Results

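The embryos described here were collected 440 min after the 4-cell stage of the nematode Caenorhabditis elegans. They make up 20 of the 161 libraries of the series, 1 for each of 20 strains, and were chosen by the stage letter of their column. Of the strains, 19 are mutation-accumulation lines, which are bred from very few animals each generation so that mutations build up almost unselected. The remaining strain is N2, the laboratory reference of the species. Each line is 1 lineage with its own mutations. The 440 min libraries were set against the 120 libraries of the same strains at 0, 60, 180, 270, 650 and 830 min, 20 at each stage, paired by strain. All libraries were made from pools of 10 whole embryos kept at 20°C, so every stage holds all tissues, and no drug or transgene is named. A second set of 21 libraries repeats strain 522 at the time points A to G, with 3 libraries each, and its letter E was set against the other 6 letters (18 libraries). The labels do not state separate cultures for the pools. The p-values therefore cover only the variation among these libraries, part of which may be technical.

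RNA was counted by CEL-Seq, which barcodes each sample, amplifies its RNA linearly and sequences the 3′ end of polyadenylated transcripts, so a count does not grow with transcript length. Gene counts summed to 23525 to 361305 in the 440 min libraries, with a median of 57953.5, against 5653 to 525902 with a median of 57199 in the other 120 libraries. At the median depth of the 440 min libraries 1 count equalled 17.3 CPM, that is, counts scaled to the same total of gene counts in each library. Levels near that value rest on single counts. Of 20687 genes in the table, 7030 had enough counts to be tested.

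Midway through C. elegans embryogenesis cell division largely ends and the ball of cells lengthens into a worm. The epidermis drives this. Actin bundles and non-muscle myosin, held by apical junctions and spectrin, squeeze the embryo, and body wall muscle takes over part of the work through attachments that cross the epidermis. A transient extracellular sheath, the precuticle, coats the apical surface and is later replaced by the collagen cuticle of the first larva. Hedgehog-related and patched-related proteins, which do not form a classical hedgehog pathway in this animal, act largely in the traffic and patterning of apical matrices. The comparison asks which transcripts set the 440 min embryo apart from earlier and later stages.

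Marker genes were used to check the stage. The summed level of 8 genes of the epidermis and elongation (lin-26, elt-3, dlg-1, ajm-1, dpy-7, noah-1, let-413 and vab-10) was 3684 to 6844 CPM at 440 min, against 2203 to 5012 CPM at 270 min and 805 to 2198 CPM at 650 min. Mean dpy-7 rose from 394 CPM at 270 min to 1891 CPM at 440 min, and ajm-1 and vab-10 also rose. The means of lin-26, elt-3, dlg-1, noah-1 and let-413 were lower at 440 min than at 270 min. For vab-10 the mean was higher still at 650 min (1055 CPM) and 830 min (1060 CPM) than at 440 min (815 CPM). Body wall muscle markers (unc-54, myo-3, unc-15 and tni-1) summed to 2247 to 4622 CPM at 440 min, against 2899 to 7771 CPM at 650 min. The 3 neuronal markers (snt-1, rab-3 and egl-21) summed to 30.4 to 341 CPM at 440 min, against 547 to 1531 CPM at 650 min. The 4 gut markers (elt-2, ges-1, ifb-2 and asp-1) summed to 403 to 1763 CPM at 440 min, against 1789 to 4056 CPM at 650 min. The 3 pharynx markers (pha-4, myo-2 and myo-1) summed to 60.9 to 477 CPM at 440 min, against 381 to 1441 CPM at 270 min and 395 to 2111 CPM at 650 min. These markers took different courses, and mean pha-4 was 756, 232 and 174 CPM at 270, 440 and 650 min. At the same stages mean myo-2 was 11.8, 13.7 and 640 CPM, and mean myo-1 was 13.1, 9.96 and 393 CPM. The 4 markers of the first zygotic transcription (pes-10, vet-6, end-1 and end-3) summed to at most 121 CPM at 440 min, against 766 to 1995 CPM at 60 min. The epidermal sums of 440 min lay above all of those at 650 min and overlapped with 270 min, while the neuronal and gut sums lay below all of those at 650 min and the muscle and pharynx sums overlapped with it. None of the markers was at 0 in all of the 440 min libraries. The 3 collagens of the hatching larva (col-12, col-13 and col-147) summed to at most 53.9 CPM at 440 min, against 1232 to 3696 CPM at 830 min. The 5 markers of eggs and early embryos (oma-1, oma-2, mex-5, pos-1 and pie-1) summed to at most 486 CPM in 19 of the 440 min libraries and to 1559 CPM in that of strain 566, against 6405 to 17385 CPM at 0 min. Counts of genes called were also taken without strain 566, and the part of this signal in other results was not tested.

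The 440 min embryo differed widely from the rest of the course. Against the mean of the other 6 stages, 2834 of the 7030 genes tested (40.3%) were called. At 440 min 1908 of them (27.1%) were at least 2-fold higher and 926 (13.2%) at least 2-fold lower, at a Benjamini-Hochberg adjusted p under 0.05 in edgeR's quasi-likelihood test with strain as a block. In pools of embryos, fewer cells of a type and less RNA per cell cannot be told apart. The median log2 fold change of all genes tested was 0.11, and 67.3% of the calls were higher.

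This split depends on the scaling and on how the other stages are averaged. With size factors of the relative log expression type (RLE) the median moved by -0.37 and 48.8% of the calls were higher. With DESeq2 it moved by -0.41 and 44.6% were higher, and with 1 coefficient for the 120 other libraries it moved by -0.34 and 37.2% were higher. With edgeR's default filter 56.6% of the calls were higher. For part of the lists, counts against the mean of the other stages are therefore given below with their values under 1 or more of these settings. Counts printed without such values can also depend on the setting.

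Set against single stages, the calls shifted with time. Genes higher at 440 min numbered 2813 against 0 min (40.0%), 2972 against 60 min (42.3%), 2226 against 180 min (31.7%), 1694 against 270 min (24.1%), 968 against 650 min (13.8%) and 1554 against 830 min (22.1%). Genes lower at 440 min numbered 1728 against 0 min (24.6%), 1681 against 60 min (23.9%), 1272 against 180 min (18.1%), 974 against 270 min (13.9%), 1255 against 650 min (17.9%) and 1172 against 830 min (16.7%). With the TMM factors of the main fit, only in the contrast with 650 min did lower calls outnumber higher ones. These pairwise counts are given with TMM factors only, and they can also depend on the scaling. Among the 1908 genes higher than the mean, the most frequent pattern was 606 genes called higher than each of the 4 earlier stages but than neither of the later 2.

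**Figure D1:**
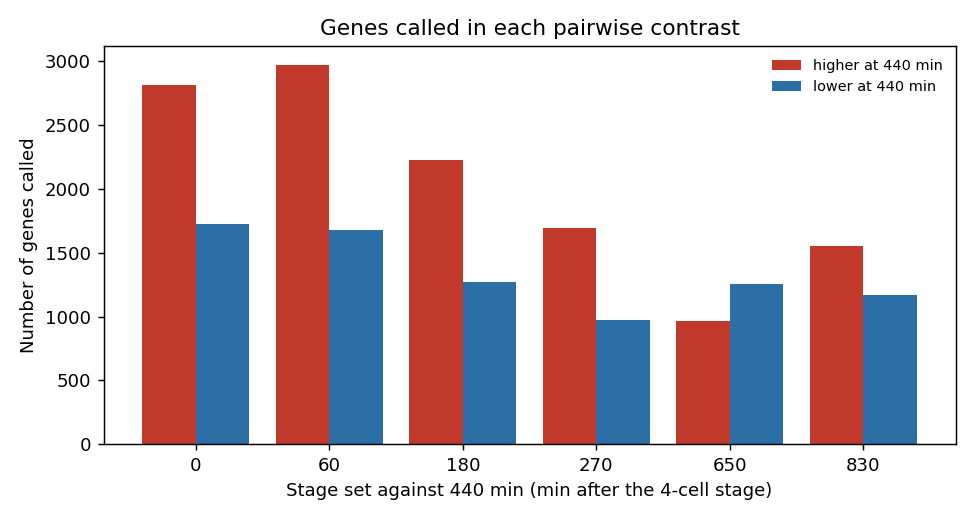
Number of genes called at least 2-fold higher (red) or lower (blue) at 440 min against each other stage, of 7030 tested, by edgeR's quasi-likelihood test at a Benjamini-Hochberg adjusted p under 0.05. With TMM factors, higher calls outnumber lower ones in each contrast except that with 650 min, where 968 genes are higher and 1255 lower.

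A smaller group stood above both sides. In all, 353 genes (5.02% of those tested) were at least 2-fold higher at 440 min than at each of the 6 other stages in the same test, and are called peak genes here. Over the stage nearest in fitted level, 160 of them were at least 4-fold higher and 88 at least 8-fold higher, and the median of this smallest log2 fold change was 1.802. The nearest stage was 650 min for 172 peak genes, 270 min for 125, 830 min for 43, 180 min for 8, 0 min for 4 and 60 min for 1. These numbers were taken with TMM factors only. For 71 genes (1.01% of those tested), all of them peak genes, the lowest of the 20 libraries at 440 min lay above the highest of the other 120. Just inside the 2-fold limit stood ric-3, wrt-5 and C05D11.13, with smallest log2 fold changes of 1.00 each to 2 decimals. Just outside it stood klp-3, F54D1.6 and ZK512.11, with 0.999, 0.988 and 0.984.

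Together the peak genes took a large share of the RNA counted. They held 10.9% of the gene counts in the lowest, 13.95% at the median and 15.1% in the highest library at 440 min. At 270 min they held 2.29% to 4.59% and at 650 min 0.991% to 3.46%, and the libraries of the remaining stages held at most 1.55%. The groups did not overlap. Because the genes were chosen on these libraries, the share is a description and was not tested in them. In the repeats of strain 522 the same genes held 13.2%, 13.4% and 14.1% of counts at E, against 3.27% to 3.57% at D and 0.556% to 1.79% at the other letters.

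**Figure D2:**
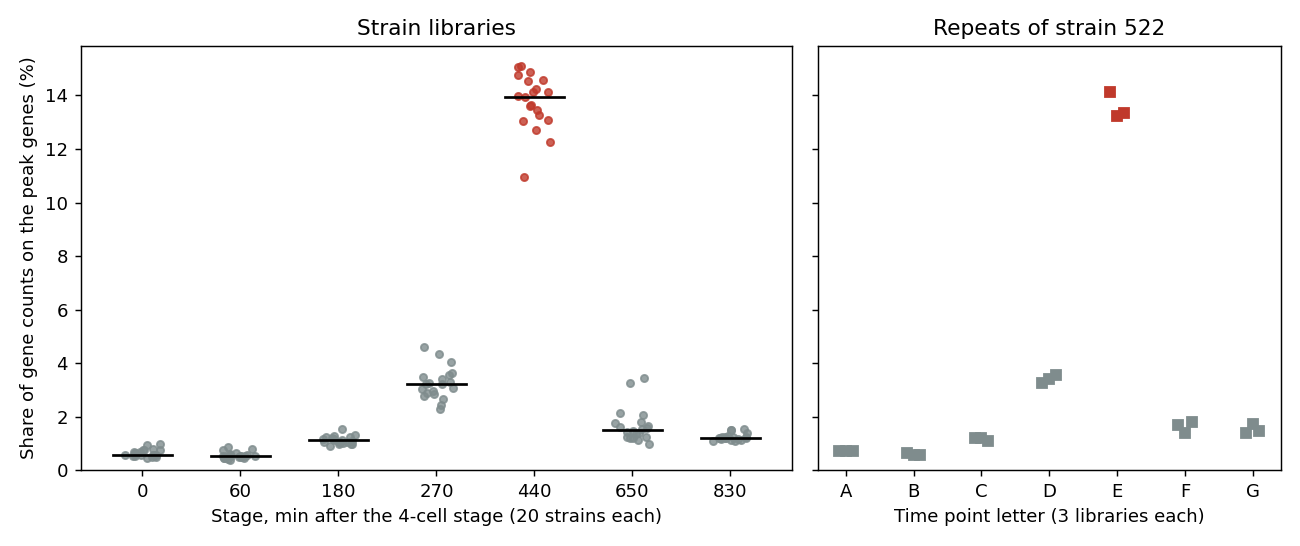
Share of gene counts, in percent, that fell on the 353 peak genes in each strain library by stage (left, lines at medians) and in each repeat library of strain 522 by letter (right). The 20 libraries of 440 min sit between 10.9% and 15.1% and the 3 libraries of E between 13.2% and 14.1%, above every other library drawn.

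The strongest peaks included secreted proteins and a transcription factor. Levels at 440 min are given from here on as the lowest, median and highest of the 20 libraries, "elsewhere" means the other 120 strain libraries, and the log2 fold change is that over the stage nearest in fitted level, with its SE. The fits scale libraries by TMM factors and CPM do not, so a fitted value can depart from the ratio of mean CPM. The lipocalin-related gene lpr-4, which encodes a secreted protein of a family that binds lipids, stood at 1314, 2803 and 4527 CPM at 440 min, against at most 338 CPM elsewhere. Its log2 fold change was 5.84 ± 0.33 (SE) over 270 min (edgeR quasi-likelihood test, adjusted p = 7.25e-37). The bZIP transcription factor gene atf-8 stood at 592, 808 and 1207 CPM at 440 min, against at most 177 CPM elsewhere. The log2 fold change was 5.81 ± 0.26 (SE) over 270 min (edgeR quasi-likelihood test, adjusted p = 8.96e-47). For both genes all 440 min libraries lay above all others.

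The warthog gene wrt-2, which encodes a hedgehog-related secreted protein, was at 128, 985 and 1929 CPM at 440 min, against at most 134 CPM elsewhere. Its lowest 440 min library thus fell just within the range of the others, and its log2 fold change was 5.67 ± 0.30 (SE) over 650 min. A second lipocalin-related gene, lpr-5, was at 784, 1208 and 1722 CPM at 440 min, against at most 253 CPM elsewhere. The groups did not overlap, and the log2 fold change was 5.51 ± 0.24 (SE) over 270 min. The gene spp-13, of the saposin-like family, was at 42.5, 307 and 553 CPM at 440 min, against at most 79.6 CPM elsewhere. It overlapped in its lowest libraries, with a log2 fold change of 5.21 ± 0.28 (SE) over 270 min.

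The other 10 of the 15 strongest peaks with a mean of at least 100 CPM were mltn-9 and 9 genes known only by identifier: F58H1.2, Y73E7A.8, Y102A11A.5, R07E3.6, T03G6.1, M03B6.3, Y54G2A.37, K08B12.1 and B0365.9. Their smallest log2 fold changes ran from 5.19 for B0365.9 to 5.74 for F58H1.2. For each of the 15 the 440 min library was the highest of the 7 in 20 of 20 strains. Genes without a symbol made up 39.4% of the 353 peak genes, against 29.6% of all genes tested.

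**Figure D3:**
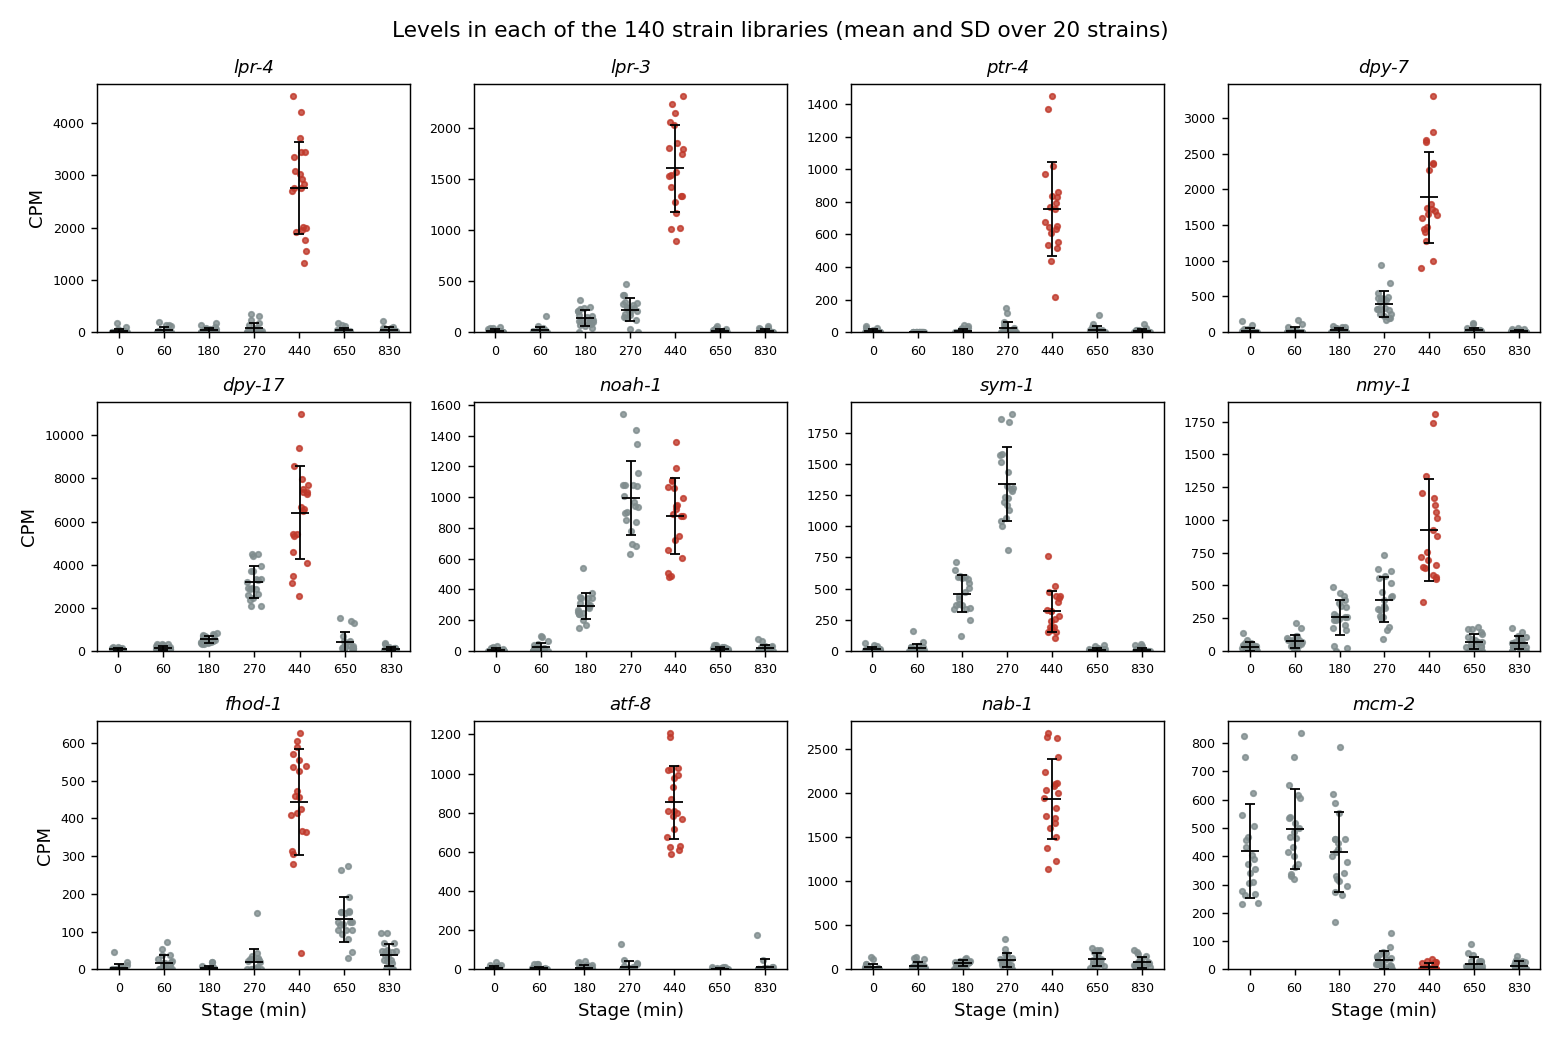
Level (CPM) of 12 genes in each of the 140 strain libraries by stage, with 440 min in red and the mean and SD over 20 strains in black. Of the genes drawn, lpr-4, lpr-3, ptr-4, dpy-7, dpy-17, nmy-1, fhod-1, atf-8 and nab-1 have their highest mean at 440 min, noah-1 and sym-1 at 270 min, and mcm-2 has its lowest mean at 440 min.

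Genes of the sheath and precuticle were mostly higher, and several were peak genes. Of 19 listed genes, 15 were tested, 14 were higher than the mean of the other stages, none was lower and 7 were peak genes, with a median log2 fold change of 4.56 beside 0.11 for all genes. Among all genes tested 27.1% were higher, 13.2% lower and 5.02% peak genes, and the counts of every list below stand beside these shares. The peak genes were lpr-1, lpr-3, lpr-4, lpr-5 and lpr-6, ptr-4 and mlt-11. The list was chosen with earlier results of these data known, and all 5 tested lpr genes were peak genes, so its counts are a description. The lipocalin-related lpr-3, whose protein lies in the precuticle and lines narrow tubes, was at 889, 1556 and 2319 CPM at 440 min, against at most 469 CPM elsewhere. No overlap was seen, and its log2 fold change was 3.30 ± 0.19 (SE) over 270 min (edgeR quasi-likelihood test, adjusted p = 1.17e-35). Its neighbour in the family lpr-6 was at 666, 1037 and 1597 CPM at 440 min, against at most 216 CPM elsewhere, also without overlap. The gene lpr-1, which keeps the excretory tube open, ran from 59.2 to 491 CPM at 440 min, and its log2 fold change was 4.94 ± 0.30 (SE) over 650 min.

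The patched-related gene ptr-4 encodes a membrane protein needed for the precuticle. It was at 215, 717 and 1454 CPM at 440 min, against at most 145 CPM elsewhere, without overlap. Its log2 fold change was 5.05 ± 0.31 (SE) over 650 min (edgeR quasi-likelihood test, adjusted p = 4.73e-33). The protease inhibitor gene mlt-11, which acts in the matrix, was at 121, 385 and 745 CPM at 440 min, against at most 404 CPM elsewhere. Its groups overlapped, and its log2 fold change was 1.34 ± 0.18 (SE) over 270 min. That value was 0.95 under RLE size factors and 0.94 under DESeq2, below the 2-fold limit.

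Other precuticle genes were also high at 270 min. The sheath gene noah-1 was at lowest, median and highest levels of 479.7, 906 and 1357 CPM at 440 min, against 629, 955 and 1539.9 CPM at 270 min. Its partner noah-2 was at 121, 638 and 1063 CPM at 440 min, against 359, 663 and 1322 CPM at 270 min. The groups overlapped, mean CPM was lower at 440 min while the fitted differences were above 0, and neither passed, with log2 fold changes of 0.23 ± 0.16 (SE) (edgeR quasi-likelihood test, adjusted p = 0.206) and 0.24 ± 0.17 (SE) (edgeR quasi-likelihood test, adjusted p = 0.229). Both were higher than at 650 min, with log2 fold changes of 5.45 ± 0.25 (SE) and 5.61 ± 0.28 (SE).

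Other matrix genes were past their highest stage. The leucine-rich repeat gene sym-1 averaged 316 ± 162 CPM at 440 min and 1341 ± 297 CPM at 270 min (SD, n = 20 each), a log2 fold change of -1.68 ± 0.19 (SE). The related let-4 averaged 82.7 ± 35.3 CPM at 440 min and 227 ± 89.9 CPM at 270 min, a log2 fold change of -1.03 ± 0.20 (SE). For let-653, a zona pellucida protein of the same matrix, it was -1.40 ± 0.25 (SE). The leucine-rich repeat gene egg-6 had a different course, with 201 ± 79.3 CPM at 440 min, 14.9 ± 21.2 CPM at 270 min and 382 ± 116 CPM at 0 min.

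The furrow collagens were highest together at this stage. These collagens form the annular furrows of the cuticle, and worms that lack one are short and fat. The 4 that were tested, of 6 listed, were all peak genes (dpy-8 and dpy-9 had too few counts). The gene dpy-7 was at 895, 1714 and 3316 CPM at 440 min, against at most 939 CPM elsewhere, and dpy-10 was at 788, 1214 and 2860.4 CPM at 440 min, against at most 728 CPM elsewhere. Of the other pair, dpy-2 was at 718, 1090.4 and 1455 CPM at 440 min, against at most 450.3 CPM elsewhere, and dpy-3 was at 386, 885 and 1229.5 CPM at 440 min, against at most 376 CPM elsewhere. The groups did not overlap for dpy-10, dpy-2 and dpy-3, and for dpy-7 they overlapped slightly. Log2 fold changes were 2.75 ± 0.22 (SE) over 270 min for dpy-7, 2.44 ± 0.18 (SE) over 270 min for dpy-10, 2.60 ± 0.20 (SE) over 270 min for dpy-2 and 2.67 ± 0.19 (SE) over 270 min for dpy-3.

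The more abundant collagen genes dpy-17, dpy-14 and sqt-3 were the 3 tested of 14 on the list of other dpy, sqt, rol, bli and lon collagens, and all 3 were higher than the mean of the other stages. The gene dpy-17 was at 2563, 6643 and 10985 CPM at 440 min, against at most 4490.5 CPM elsewhere, and dpy-14 was at 2682, 6216 and 10985 CPM at 440 min, against at most 4311 CPM elsewhere. Both overlapped with other libraries. Their log2 fold changes were 1.41 ± 0.20 (SE) over 270 min and 1.33 ± 0.23 (SE) over 270 min, and that of dpy-14 was 0.93 under RLE size factors and 0.91 under DESeq2. No peak was called for sqt-3, at 5509 ± 1974 CPM at 440 min and 4378 ± 2143 CPM at 650 min.

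The numbered col collagens had more lower than higher members, and most were not called under TMM scaling. Of 158 in the table, 72 were tested, 7 were higher than the mean of the other stages, 28 lower, 37 not called and 2 peak genes, with a median log2 fold change of -0.79. Lower members numbered 36 under RLE size factors, 40 under DESeq2 and 50 with 1 coefficient for the 120 other libraries. The peak gene col-121 was at 382, 646 and 1156 CPM at 440 min, against at most 321 CPM elsewhere, without overlap, and col-76 was at 211, 399 and 791 CPM at 440 min, against at most 292 CPM elsewhere, with overlap. Their log2 fold changes were 2.73 ± 0.17 (SE) over 270 min and 2.26 ± 0.19 (SE) over 270 min. Of the lower members, col-167 averaged 48.3 ± 52.9 CPM at 440 min and 2739.6 ± 1140.1 CPM at 650 min, and col-3 averaged 167 ± 243 CPM at 440 min and 6607 ± 2601 CPM at 650 min. Collagens with near-identical 3′ ends can share reads.

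Cuticlins, matrix proteins with a zona pellucida domain, and collagen enzymes were higher or not called. Of all genes tested, 27.1% were higher, 13.2% lower and 5.02% peak genes. Of 35 cuticlin and cuticlin-like genes, 12 were tested, 7 were higher, none was lower and 2 were peak genes, while with 1 coefficient for the 120 other libraries 5 were higher and 2 lower. The gene cutl-28 was at 95.8, 194 and 314 CPM at 440 min, against at most 108 CPM elsewhere, and cutl-10 was at 0, 80.1 and 246 CPM at 440 min, against at most 76.7 CPM elsewhere. Of 23 processing enzymes 16 were tested, 8 were higher, none was lower and 1 was a peak gene, dpy-31, a secreted astacin protease that trims collagens. Of the enzymes 4 were higher under RLE size factors and under DESeq2. The log2 fold change was 1.02 ± 0.21 (SE) over 650 min, and 0.96 without the strain block.

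The contractile machinery of elongation was higher in part, beside 5.02% peak genes, 27.1% higher and 13.2% lower among all genes tested. Of 27 listed genes of actomyosin and spectrin, 26 were tested, 14 were higher than the mean of the other stages, 1 was lower and 7 were peak genes, with a median log2 fold change of 1.41. Under RLE size factors 4 of them were peak genes. The non-muscle myosin heavy chain gene nmy-1 was at 368, 814 and 1806 CPM at 440 min, against at most 732 CPM elsewhere. Its log2 fold change was 1.70 ± 0.19 (SE) over 270 min (edgeR quasi-likelihood test, adjusted p = 2.21e-14). The gene mel-11, a subunit of the myosin phosphatase, was at 123, 324 and 531 CPM at 440 min, against at most 394 CPM elsewhere, with a log2 fold change of 1.53 ± 0.18 (SE) over 180 min. Both overlapped with other libraries. Under RLE size factors the value of mel-11 was 0.81 and under DESeq2 0.82, below the limit.

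The myosin light chain gene mlc-5 had a log2 fold change of 1.08 ± 0.14 (SE) over 0 min, which was 0.23 under RLE size factors and 0.24 under DESeq2. The formin gene fhod-1, which assembles actin, was at 42.5, 459 and 626 CPM at 440 min, against at most 273 CPM elsewhere, with 1.33 ± 0.20 (SE) over 650 min. Spectrins, which stabilise the cortex, differed by less than 2-fold from a neighbouring stage. The heavy beta spectrin gene sma-1 averaged 430.2 ± 186 CPM at 440 min and 525 ± 166 CPM at 270 min, and the alpha spectrin gene spc-1 averaged 807 ± 261 CPM at 440 min and 866 ± 272 CPM at 270 min. The lower gene was fem-2, a protein phosphatase with roles in elongation and sex determination, with 16.2 ± 12.4 CPM at 440 min and 222 ± 98.0 CPM at 0 min.

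Genes of the epidermal junctions and hemidesmosomes, the attachments between epidermis and muscle, were mostly higher. Of 22 listed, 21 were tested, 18 were higher, none was lower and 3 were peak genes, with a median log2 fold change of 2.12. The intermediate filament gene ifa-3 was at 162, 366 and 699.9 CPM at 440 min, against at most 153 CPM elsewhere. The groups lay apart, and its log2 fold change was 3.45 ± 0.20 (SE) over 270 min (edgeR quasi-likelihood test, adjusted p = 1.34e-35). The gene mua-3, a transmembrane protein of the attachment, ran from 30.7 to 239.9 CPM at 440 min, with 1.70 ± 0.25 (SE) over 650 min. The cell fusion gene aff-1 ran from 0 to 224 CPM at 440 min, with 2.80 ± 0.28 (SE) over 650 min. Perlecan, encoded by unc-52, averaged 669 ± 220.4 CPM at 440 min and 864 ± 220.0 CPM at 650 min.

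Hedgehog-related and patched-related genes gave further peaks, beside 5.02% peak genes, 27.1% higher and 13.2% lower among all genes tested. Of 89 listed, 27 were tested, 13 were higher, 2 lower and 7 were peak genes, namely wrt-1, wrt-2, wrt-5, qua-1, ptr-4, ptr-25 and daf-6. The split was 12 higher and 3 lower under RLE size factors and 12 higher and 5 lower under DESeq2, and with 1 coefficient for the 120 other libraries 10 were higher and 11 lower. The hedgehog-related gene qua-1 was at 123, 397 and 950.2 CPM at 440 min, against at most 114 CPM elsewhere. All 440 min libraries lay above the others, and its log2 fold change was 4.89 ± 0.29 (SE) over 830 min (edgeR quasi-likelihood test, adjusted p = 3.36e-35). The warthog gene wrt-1 was at 0, 317 and 868 CPM at 440 min, against at most 59.7 CPM elsewhere, with 1 strain at 0 and a log2 fold change of 4.77 ± 0.30 (SE) over 650 min. The patched-related ptr-25 ran from 131 to 833 CPM at 440 min, with 4.003 ± 0.21 (SE) over 270 min. The 2 lower genes had later peaks. The gene grl-4 averaged 10.9 ± 16.2 CPM at 440 min and 1078 ± 1011 CPM at 650 min, and grd-3 averaged 3.98 ± 10.3 CPM at 440 min and 198 ± 118 CPM at 830 min.

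Small membrane proteins of cell contacts also held several peaks, beside 5.02% peak genes, 27.1% higher and 13.2% lower among all genes tested. Of 77 claudin-like, tetraspanin and innexin genes, 28 were tested, 18 were higher, 3 lower and 9 peak genes, with a median log2 fold change of 2.55. The claudin-like gene clc-6 was at 828, 1246 and 2125 CPM at 440 min, against at most 681 CPM elsewhere, and clc-5 was at 183, 233 and 350.3 CPM at 440 min, against at most 103 CPM elsewhere. Neither overlapped, and log2 fold changes were 1.48 ± 0.19 (SE) over 650 min for clc-6 (edgeR quasi-likelihood test, adjusted p = 1.69e-11) and 2.21 ± 0.23 (SE) over 830 min for clc-5. Tetraspanin genes tsp-17 and tsp-20 had 2.24 ± 0.24 (SE) over 270 min and 2.17 ± 0.27 (SE) over 650 min. The gap junction gene inx-2 was lower, with 50.8 ± 38.6 CPM at 440 min and 1232 ± 227 CPM at 180 min.

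**Figure D4:**
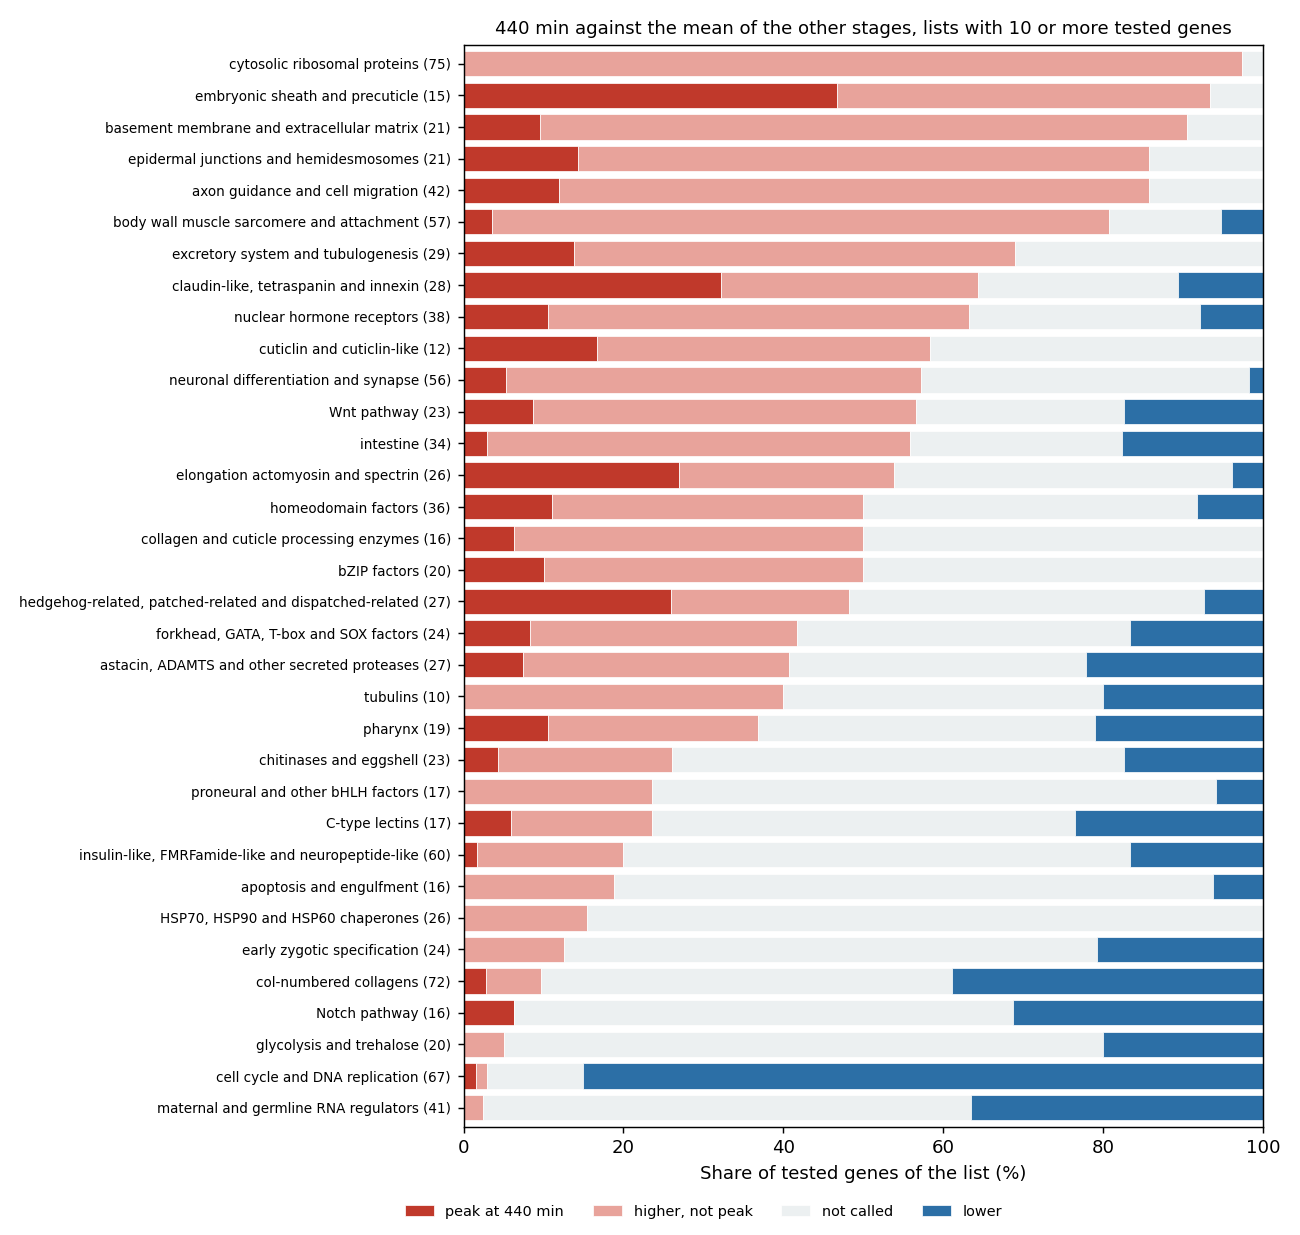
Share of the tested genes of each list that were peak genes at 440 min, higher than the mean of the other stages, not called or lower, for lists with at least 10 tested genes (number tested in brackets). Sheath and precuticle genes include 7 peak genes of 15, ribosomal protein genes are higher in 73 of 75 with no peak gene, and cell cycle genes are lower in 57 of 67.

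Transcription factors with a peak came from several families, beside 5.02% peak genes, 27.1% higher and 13.2% lower among all genes tested. Of 29 bZIP genes, 20 were tested, 10 were higher, none was lower and 2 were peak genes, atf-8 and atf-2. Under DESeq2 8 bZIP genes were higher and 3 lower. The gene atf-2 was at 581, 1342 and 2191 CPM at 440 min, against at most 519.7 CPM elsewhere. The groups did not overlap, and its log2 fold change was 2.90 ± 0.24 (SE) over 270 min (edgeR quasi-likelihood test, adjusted p = 5.55e-23). Of 283 nuclear hormone receptor genes, a family much enlarged in nematodes, 38 were tested, 24 were higher, 3 lower and 4 peak genes, and with 1 coefficient for the 120 other libraries 13 were higher and 3 lower. The gene nhr-91 was at 92.1, 326 and 553 CPM at 440 min, against at most 177 CPM elsewhere, and nhr-43 was at 26.9, 77.1 and 167 CPM at 440 min, against at most 97.9 CPM elsewhere, both with overlap. Their log2 fold changes were 2.28 ± 0.21 (SE) over 650 min and 2.44 ± 0.30 (SE) over 270 min. The epidermal receptor gene nhr-25 was lower, with 6.22 ± 14.1 CPM at 440 min, 206 ± 82.2 CPM at 180 min and 50.5 ± 37.6 CPM at 650 min.

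Among all genes tested 27.1% were higher, 13.2% lower and 5.02% peak genes. Of 101 homeodomain genes, 36 were tested, 18 were higher, 3 lower and 4 peak genes. There were 16 higher, 6 lower and 2 peak genes under RLE size factors, and under DESeq2 16 were higher and 9 lower. The gene unc-42, which sets the identity of several neuron classes, was at 84.8, 168 and 364 CPM at 440 min, against at most 195 CPM elsewhere, with overlap and a log2 fold change of 1.504 ± 0.22 (SE) over 650 min. The others were cog-1, ceh-44 (a CUX gene) and ceh-48 (a ONECUT gene), with 1.35 ± 0.25 (SE) over 270 min, 1.25 ± 0.20 (SE) over 830 min and 1.22 ± 0.24 (SE) over 650 min. Under RLE size factors cog-1 was at 0.97 and ceh-44 at 0.92. Of 53 forkhead, GATA, T-box and SOX genes, 24 were tested, 10 were higher, 4 lower and 2 peak genes. The split was 6 higher and 5 lower under RLE size factors, and 5 higher and 8 lower with 1 coefficient for the 120 other libraries. The peak genes were elt-6, a GATA factor of the epidermis, and egl-13, a SoxD gene, with 1.02 ± 0.21 (SE) over 270 min and 1.16 ± 0.22 (SE) over 650 min. Under RLE size factors elt-6 was at 0.62, and under DESeq2 at 0.61. Of 17 tested bHLH genes 4 were higher, beside 27.1% of all genes tested, 1 was lower and none was a peak gene. The direction turned with the scaling, to 1 higher and 2 lower under RLE size factors, 1 higher and 5 lower under DESeq2, and 1 higher and 7 lower with 1 coefficient for the 120 other libraries.

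Muscle genes were broadly higher under TMM scaling. Of all genes tested, 27.1% were higher, 13.2% lower and 5.02% peak genes. Of 61 genes of the body wall muscle sarcomere and its attachment, 57 were tested, 46 were higher than the mean of the other stages, 3 lower and 2 peak genes, with a median log2 fold change of 2.26. With 1 coefficient for the 120 other libraries 24 were higher and 6 lower. The peak genes were alp-1, a Z-line protein, at 209, 437 and 869 CPM at 440 min, against at most 487 CPM elsewhere, and lim-8, a LIM domain protein, at 0, 174 and 364 CPM at 440 min, against at most 177 CPM elsewhere. Both overlapped, and their log2 fold changes were 1.28 ± 0.20 (SE) over 650 min and 1.92 ± 0.26 (SE) over 830 min. The troponin T gene tnt-3 missed the limit, with 0.87 ± 0.18 (SE) against 650 min. Its paralog tnt-2 was lower, with 25.3 ± 31.9 CPM at 440 min and 934 ± 283 CPM at 830 min. The muscle regulator gene unc-120 averaged 303 ± 88.1 CPM at 440 min and 439.5 ± 121 CPM at 270 min.

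Axon guidance genes were higher in most cases. Of 51 guidance and cell migration genes, 42 were tested, 36 were higher, none was lower and 5 were peak genes. The Slit ligand gene slt-1 was at 30.7, 94.6 and 167 CPM at 440 min, against at most 95.8 CPM elsewhere, and the plexin receptor gene plx-2 was at 0, 136 and 245 CPM at 440 min, against at most 124 CPM elsewhere. The immunoglobulin surface protein gene wrk-1 was at 154, 482 and 803 CPM at 440 min, against at most 449.8 CPM elsewhere. All 3 overlapped with other libraries, and log2 fold changes were 1.69 ± 0.28 (SE) over 650 min for slt-1, 1.41 ± 0.24 (SE) over 650 min for plx-2 and 1.07 ± 0.18 (SE) over 650 min for wrk-1. The papilin gene mig-6, of the basement membrane, was at 706, 1609.7 and 2344 CPM at 440 min, against at most 1165 CPM elsewhere, with 1.53 ± 0.17 (SE) over 650 min. The other peak gene was unc-6, the netrin guidance cue, with 1.07 ± 0.21 (SE) over 650 min.

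Neuronal and ciliary genes are set here beside 27.1% higher, 13.2% lower and 5.02% peak genes among all genes tested. Of 73 genes of neuronal differentiation and the synapse, 56 were tested, 32 were higher, 1 lower and 3 peak genes, among them unc-42. The split was 27 higher and 4 lower under RLE size factors, under DESeq2 27 were higher and 10 lower, and with 1 coefficient for the 120 other libraries 19 were higher and 14 lower. The gene nab-1, a neurabin scaffold that binds actin, was at 1143, 1969 and 2685 CPM at 440 min, against at most 344 CPM elsewhere. No overlap was seen, and its log2 fold change was 3.65 ± 0.22 (SE) over 650 min (edgeR quasi-likelihood test, adjusted p = 6.06e-35). The acetylcholine receptor chaperone gene ric-3 was at 199.97, 413 and 556 CPM at 440 min, against at most 363 CPM elsewhere, with overlap. Its log2 fold change stood at the limit, and was 0.87 without the strain block. The lower gene under TMM scaling was ngn-1, a proneural factor, with 0.418 ± 1.87 CPM at 440 min and 106 ± 66.2 CPM at 270 min. Of 71 genes of the cilium 9 were tested, 6 were higher, 1 lower and 1 a peak gene, daf-19, the RFX factor that controls ciliary genes. It was at 80.0, 217 and 415 CPM at 440 min, against at most 227 CPM elsewhere, with 1.16 ± 0.21 (SE) over 830 min, and 0.74 without the strains 536 and 593.

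Excretory and basement membrane genes were higher or not called under TMM scaling. Of 37 genes of the excretory system and tubes, 29 were tested, 20 were higher, none was lower and 4 were peak genes, namely lpr-1, lpr-3, aff-1 and exc-5, a guanine nucleotide exchange factor of the excretory canal. With 1 coefficient for the 120 other libraries 11 were higher and 1 lower. The log2 fold change of exc-5 was 1.22 ± 0.22 (SE) over 830 min, and 0.81 without the strains 536 and 593. Of 28 basement membrane genes, 21 were tested, 19 were higher, none was lower and 2 were peak genes, mig-6 and the agrin gene agr-1, while with 1 coefficient for the 120 other libraries 8 were higher and 1 lower. The level of agr-1 was 0, 136 and 283 CPM at 440 min, against at most 87.5 CPM elsewhere, with 1.65 ± 0.25 (SE) over 650 min. The type IV collagen gene let-2 averaged 1855 ± 457 CPM at 440 min and 1319.9 ± 334 CPM at 650 min.

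Gut and pharynx genes were mixed, and their direction depended on the setting. Of all genes tested, 27.1% were higher, 13.2% lower and 5.02% peak genes. Of 46 intestinal genes, 34 were tested, 19 were higher, 6 lower and 1 a peak gene, cpr-6, a cathepsin B-like protease. It was at 152, 540.4 and 1233 CPM at 440 min, against at most 716 CPM elsewhere, with overlap and 1.22 ± 0.22 (SE) over 270 min, which was 0.82 under RLE size factors and 0.82 under DESeq2. The list had no peak gene under RLE size factors or DESeq2, and with 1 coefficient for the 120 other libraries 8 of its genes were higher and 12 lower. The aspartic protease gene asp-6 was lower, with 27.8 ± 39.5 CPM at 440 min and 2071 ± 518 CPM at 830 min. Of 37 pharyngeal genes, 19 were tested, 7 were higher, 4 lower and 2 peak genes. The split was 5 higher and 5 lower under RLE size factors, 6 higher and 6 lower under DESeq2, and 3 higher and 11 lower with 1 coefficient for the 120 other libraries. The peak genes were peb-1, a DNA-binding protein of the pharynx, and abu-13, with 2.11 ± 0.22 (SE) over 270 min and 2.11 ± 0.29 (SE) over 650 min. Near-identical abu genes can share reads, so the value of abu-13 is uncertain. The pharyngeal myosin gene myo-2 was lower, with 13.7 ± 15.5 CPM at 440 min and 1325 ± 536.5 CPM at 830 min.

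Other families gave single peaks, beside 5.02% peak genes, 27.1% higher and 13.2% lower among all genes tested. In the list of chitinases and eggshell genes (6 of 23 tested were higher and 4 lower) chtb-1 was at 399.8, 728 and 1207 CPM at 440 min, against at most 891 CPM elsewhere, with 3.20 ± 0.28 (SE) over 650 min. The split of this list was 4 higher and 6 lower under RLE size factors, 5 higher and 10 lower under DESeq2, and 4 higher and 11 lower with 1 coefficient for the 120 other libraries. Among 6 tested small heat shock protein genes (4 higher, 1 lower) hsp-12.1 was at 359.8, 742 and 1689 CPM at 440 min, against at most 199 CPM elsewhere, without overlap and with 3.83 ± 0.24 (SE) over 270 min. Among 17 tested C-type lectin genes (4 higher, 4 lower) clec-180 was at 85.0, 307 and 555.0 CPM at 440 min, against at most 76.8 CPM elsewhere, without overlap and with 5.12 ± 0.30 (SE) over 650 min. Lectin genes split into 4 higher and 6 lower under RLE size factors, 3 higher and 12 lower under DESeq2, and 1 higher and 13 lower with 1 coefficient for the 120 other libraries.

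Signalling genes gave 1 or 2 peaks a list, beside 5.02% peak genes, 27.1% higher and 13.2% lower among all genes tested. Among 16 tested Notch pathway genes 1 was higher and 5 lower, and the higher one was the peak gene dsl-6, of the Notch ligand family, with 3.69 ± 0.26 (SE) over 270 min. Of 23 tested Wnt pathway genes 13 were higher and 4 lower, and the peak genes were fmi-1, the flamingo cadherin, and cwn-2, a Wnt ligand, with 1.49 ± 0.20 (SE) over 650 min and 1.23 ± 0.22 (SE) over 270 min. Under RLE size factors cwn-2 was at 0.84. Wnt pathway genes split into 10 higher and 4 lower under RLE size factors and under DESeq2. Lower Notch pathway genes numbered 6 under RLE size factors, 7 under DESeq2 and 9 with 1 coefficient for the 120 other libraries. Among 60 tested peptide genes (12 higher, 10 lower) the insulin-like gene ins-34 was at 40.4, 246 and 491 CPM at 440 min, against at most 260.0 CPM elsewhere, with 1.39 ± 0.20 (SE) over 270 min. The split of this list was 9 higher and 14 lower under RLE size factors, 8 higher and 27 lower under DESeq2, and 1 higher and 40 lower with 1 coefficient for the 120 other libraries.

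Ribosomal protein genes were higher as a group without a peak. Of 76 listed, 75 were tested, 73 were higher than the mean of the other stages, none was lower and none was a peak gene, with a median log2 fold change of 1.49. Under RLE size factors 57 were higher, under DESeq2 57, and with 1 coefficient for the 120 other libraries 0. For example, rpl-11.2 averaged 2424 ± 498 CPM at 440 min, 171 ± 101 CPM at 60 min and 2996 ± 693 CPM at 830 min. Near-identical ribosomal protein genes can share reads.

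Cell division genes were low at 440 min. Of 70 cell cycle and DNA replication genes, 67 were tested, 57 were lower, 2 higher, and 1 of the higher ones a peak gene, with a median log2 fold change of -1.67. The helicase subunit gene mcm-7 was at lowest, median and highest levels of 0, 39.6 and 159.9 CPM at 440 min, against 910.1, 1482 and 2563 CPM at 180 min. The groups lay apart, and its log2 fold change against 180 min was -4.28 ± 0.22 (SE) (edgeR quasi-likelihood test, adjusted p = 8.60e-42). Polo-like kinase, encoded by plk-1, was at 0, 26.2 and 119.9 CPM at 440 min, against 254, 467 and 743 CPM at 180 min, also without overlap and with -3.31 ± 0.22 (SE). The mean of mcm-7 was 52.0 CPM at 440 min and 55.8 CPM at 650 min, and that of plk-1 was 32.4 CPM at 440 min and 31.2 CPM at 650 min. The higher genes were cki-1, an inhibitor of cyclin-dependent kinases, with 419 ± 153 CPM at 440 min and 66.6 ± 39.5 CPM at 650 min, and klp-7, a microtubule-depolymerising kinesin. The log2 fold change of klp-7 was 1.26 ± 0.23 (SE) over 0 min, and 0.40 under RLE size factors and under DESeq2.

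Few genes stood below every other stage. These trough genes, at least 2-fold lower at 440 min than at each of the other 6 stages, numbered 18 (0.256% of those tested), and 3 of them were cell cycle genes, mcm-2, cdk-4 and smc-4. The helicase subunit gene mcm-2 was at 0, 2.62 and 38.3 CPM at 440 min, against 318, 476 and 836 CPM at 60 min, without overlap. The log2 fold change was -4.64 ± 0.29 (SE) against 60 min but -1.22 ± 0.41 (SE) against 830 min, a stage at which the mean was 13.8 CPM, less than 1 count at the median depth. Of genes known only by identifier, T14F9.2 was at 0, 0 and 38.3 CPM at 440 min, against 39.4, 111 and 197 CPM at 180 min, and K12H6.6 was at 0, 10.4 and 42.4 CPM at 440 min, against 198, 489.9 and 778 CPM at 180 min. Neither overlapped with 180 min. Their smallest fitted drops were log2 fold changes of -2.28 ± 0.42 (SE) and -1.43 ± 0.34 (SE), both against 0 min. By mean CPM other stages were nearer. For T14F9.2 the mean was 27.9 CPM at 830 min and 34.9 CPM at 0 min, and for K12H6.6 29.5 CPM at 650 min and 63.5 CPM at 0 min. The other named trough genes, C09G4.4 and the ferredoxin gene fdx-2, had -1.25 ± 0.43 (SE) against 830 min and -1.17 ± 0.36 (SE) against 830 min, and fdx-2 was at -0.96 under RLE size factors.

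Maternal and early zygotic genes had more lower than higher members, and most were not called under TMM scaling. Of 51 maternal and germline RNA regulators, 41 were tested, 15 were lower than the mean of the other stages, 1 was higher and 25 were not called. Lower members numbered 24 under RLE size factors, 29 under DESeq2 and 30 with 1 coefficient for the 120 other libraries. The germline Nanos gene nos-2 averaged 44.8 ± 69.5 CPM at 440 min and 1748 ± 488 CPM at 0 min, and the securin gene ify-1 averaged 35.8 ± 27.3 CPM at 440 min and 786 ± 135 CPM at 0 min. Of 41 early zygotic genes, 24 were tested, 5 were lower and 3 higher. The split was 10 lower and 2 higher under RLE size factors, 13 lower and 2 higher under DESeq2, and 16 lower and 0 higher with 1 coefficient for the 120 other libraries. The T-box gene tbx-11 averaged 10.1 ± 15.9 CPM at 440 min and 446 ± 183 CPM at 60 min. The nuclear receptor gene sex-1, which acts in sex determination, averaged 22.8 ± 21.8 CPM at 440 min and 1000.3 ± 306 CPM at 180 min.

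Chromosome X held a larger share of the peak genes than of all genes tested. Of the 353, 82 (23.2%) lie on chromosome X, against 12.8% of all genes tested, and 21.9% of the 1908 higher genes do. The other chromosomes held 48 to 60 peak genes each. Of the 349 peak genes among protein-coding genes in the RefSeq annotation, 24 sit next to another peak gene, in 11 runs. No share over all genes is given beside this count, so it cannot be called few or many. The longest run has 4 genes, lpr-3, lpr-6, lpr-5 and lpr-4 on X. Neither placement was tested.

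The values of the peak genes differed among strains. The genes were chosen on these libraries, so the strains in which 440 min was highest are a description and no support for the calls. The 440 min library was the highest of the 7 in all 20 strains for 143 of the 353 peak genes and in at least 15 strains for 318, with a median of 19 strains and a minimum of 8. Across genes, the correlation of each 440 min library with the mean of the other strains was 0.858 (N2) to 0.966 (564) at 440 min, against 0.605 to 0.716 with the 270 min mean and 0.543 to 0.659 with the 650 min mean. Genes are not independent replicates, and the libraries differ in depth. In strain 508, 274 peak genes (77.6%) had their highest level at 440 min, and in strains 550 and 564 339 had. Without N2 there were 334 peak genes and without strain 566 342. The 440 min libraries of strains 536 and 593 are also listed in a table of reruns. Without both strains there were 300 peak genes, of which 298 were among the 353. The genes wrk-1, ceh-44, egl-13, elt-6, dpy-31 and ric-3 then fell below the 2-fold limit, with smallest log2 fold changes of 0.87, 0.82, 0.97, 0.99, 0.93 and 0.87 in that order.

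The repeats of strain 522 gave the contrast in other libraries. Of 10805 genes tested there, 3457 (32.0%) were higher at E than the mean of the other letters, 1187 (11.0%) were lower, 731 (6.77%) were peak genes at E and 40 (0.37%) trough genes. All 353 peak genes of the strains were tested and were higher at E. Of them 308 were peak genes there, which is 87.3% of the strain peaks and 42.1% of the 731 peaks of the repeats. Only 377 of those 731 had been tested in the strains. The smallest log2 fold change of the 353 genes in the repeats had a median of 1.93 and a lowest value of -0.17. Of the 18 trough genes, 15 were lower at E and 7 were trough genes.

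Single genes in the repeats can be read the same way. The gene lpr-4 was at 3014, 1751 and 2393 CPM at E, against at most 68.8 CPM in the other 18 libraries. For dpy-7 the values were 1249, 1177 and 1298 CPM at E, against at most 498 CPM, and for atf-8 675, 733 and 896 CPM at E, against at most 34.2 CPM. None of these 3 overlapped. Other peak genes lay closer, and nmy-1 was at 574, 833 and 591 CPM at E, against at most 551 CPM. The peak gene dpy-17 overlapped, at 3816, 2100 and 2835 CPM at E, against at most 2401 CPM. The letters come from the descriptions and column names, and the time point numbers of the titles run in the same order. They were used since the time field of 18 of the 21 repeat libraries goes against them. The strain is also 1 of the 20.

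**Figure D5:**
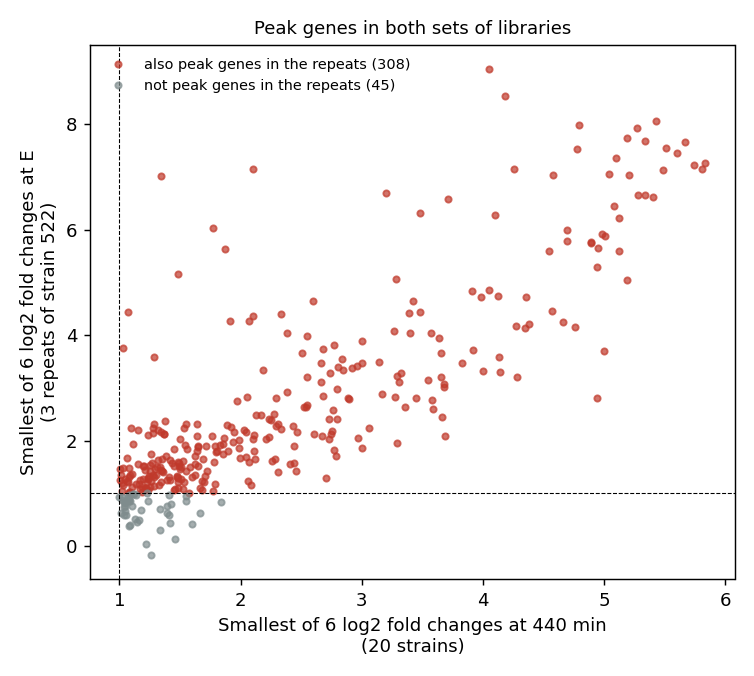
Smallest of the 6 log2 fold changes over the other stages for each of the 353 peak genes, at 440 min in the 20 strains (horizontal) and at E in the 3 repeats of strain 522 (vertical), with dashed lines at 2-fold. In red are the 308 genes above 2-fold at an adjusted p under 0.05 against each of the 6 other letters in the repeats, and in grey the other 45.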

How the data were processed

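Whole numbers were deposited for each gene and library as raw counts. Per the submitters' processing notes, CASAVA 1.8 and Bowtie2 2.1.0 were used. The counting program, its use of strand and the genome build are not given in sources used here, so no coordinates are printed, and reads shared by overlapping or near-identical genes cannot be resolved. Groups came from the labels. The repeats of strain 522 were grouped by the time point number in the title, which runs in step with the letter in the description and column name. Names came from RefSeq (20063 of 20687 identifiers matched). Of the value columns, 7 matched no sample and were not used. In the repeats 38.8% to 70.2% of reads were not aligned and 17.8% to 47.7% of aligned reads fell on no feature. Such rows stayed out of library sizes.

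Counts were tested in R 4.3.3 with edgeR 4.0.16, using filterByExpr with a minimum count of 3, TMM factors, two-sided quasi-likelihood tests with stage coefficients and strain as a block, and Benjamini-Hochberg adjustment over all genes tested. DESeq2 1.42.0 was an alternative. The SE is the log2 fold change over the root of the F statistic. Strain pairs the stages in the labels, and deviations of libraries of the same strain from their stage means had a median correlation of 0.115 to 0.184 by stage, against -0.024 to -0.006 between strains (2217 genes). In the repeats the numbers did not pair, and no block was used. In simulated counts for the strain design, on 6762 genes, 69.4% of genes raised 2-fold, 17.1% of genes lowered 2-fold and 0.0761% of unchanged genes were called. Intervals from counting error were not computed.

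The members, the 41 gene lists and the tests were chosen with earlier results of these data known. The genes named are the 15 strongest peak genes and 5 strongest trough genes with a mean of at least 100 CPM, called genes of the furrow collagen, sheath and elongation lists, and of each other list up to 4 peak genes and the 2 with the smallest p in each direction. Some of these are counted but not named, and markers, threshold neighbours, wrt-5, daf-6, unc-6, cdk-4, smc-4 and the observations were added. Sequences and promoter motifs were not analysed here.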

Additional observations from a re-analysis of the deposited data

How the results depend on the processing

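Counts were shallow, and most genes were not tested. In simulated counts the adjusted p passed for 91.8% of 2-fold rises and 39% of 2-fold drops. There the true change lay at the calling limit, and 6574 of 6762 genes were unchanged, unlike the share called in the data. Depth was not varied, so its part in this was not tested. With edgeR's default filter (2970 genes tested), 740 genes were higher and 568 lower than the mean of the other stages, 131 were peak genes, all among the 137 of the 353 that were still tested, and 6 were trough genes. With no filter beyond 1 count (18316 genes), 3984 were higher and 759 were peak genes, of which 337 were among the 353. Lower genes numbered 1611 under RLE size factors and 1860 under DESeq2. With 1 coefficient for the 120 other libraries 1116 were higher and 1883 lower, and act-5 and nuc-1 changed sign, to log2 fold changes of -0.15 and -0.14. Peak genes numbered 319 under RLE size factors (294 of the 353), and 318 under DESeq2 (292 of the 353). Without the strain block (no replicate block) 1903 genes were higher, 980 lower, 337 peak genes and 16 trough genes. Leaving out the 4 shallow libraries, N2, strain 522, strain 566 or the 2 strains of the reruns moved no count by over 1.5 times. Leaving out strain 566 and leaving out the strains of the reruns were chosen after seeing the data. Of the 179 genes followed singly, 134 had the same call in each alternative that gave them a value. The default filter and the single coefficient gave none for part of them, and no peak genes could be called with the single coefficient. In the alternatives other than these, 250 of the 353 peak genes stayed peak genes. In the repeats, leaving out each replicate gave 3265 to 3382 higher, 883 to 936 lower and 625 to 679 peak genes. With a replicate block, where the numbers share only a label, 3421 genes were higher, 1168 lower and 713 peak genes. The cause of these shifts was not tested.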

Other observations

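Among the peak genes, names chosen after their values were seen included several of the epidermal surface and its glycosylation. Genes bus-8B, bus-12 and bus-17, known from mutants with an altered cuticle surface, were 3 of the 5 tested bus genes. The lowest, median and highest levels of bus-17 were 26.9, 92.4 and 215 CPM at 440 min, against at most 28.4 CPM elsewhere in the strain libraries, with a log2 fold change of 3.26 ± 0.29 (SE) over 650 min. For bus-12 it was 3.92 ± 0.34 (SE) over 650 min and for bus-8B 1.77 ± 0.27 (SE) over 650 min. The UDP-galactopyranose mutase gene glf-1 was at 0, 405 and 942 CPM at 440 min, against at most 104 CPM elsewhere, with 4.18 ± 0.29 (SE) over 650 min. Both tested hhat genes, named for hedgehog acyltransferases, were peak genes: hhat-1 was at 85.0, 336 and 487 CPM at 440 min, against at most 73.9 CPM elsewhere, with 4.69 ± 0.25 (SE) over 270 min, and hhat-2 had 2.77 ± 0.27 (SE) over 270 min. Of the 4 tested molting genes named mlt, 3 were peak genes, and mlt-8 was at 638, 1472 and 2695 CPM at 440 min, against at most 1327 CPM elsewhere, with 1.66 ± 0.23 (SE) over 270 min. The gene acn-1, related to angiotensin-converting enzyme and needed for larval molts, was at 215, 461 and 791 CPM at 440 min, against at most 173 CPM elsewhere, with 3.68 ± 0.21 (SE) over 270 min. These genes were picked from the peak genes, so their direction is fixed by the choice.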
